A study of Mus musculus with 495 samples.

Results

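Cells of the mouse embryonic pancreas that held Neurog3 mRNA at E15.5 were divided by whether reads of a GFP reporter were found in the same cell. The cells came from well rows A, B, E and F of plates EA01, EA02 and EA03 and had Neurog3 at 20 CPM or more, where CPM is counts scaled to 1000000 counts per cell. This rule took 110 of the 495 cells of the series. A cell was GFP-read when the table's Gfp_transgene row stood at 10 CPM or more and GFP-unread when it stood below. There were 33 GFP-read and 77 GFP-unread cells. The cells were thus chosen by their measured GFP and Neurog3 levels, which are given as a description.

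All 110 cells were labelled E15.5 and Neurog3-eGFP, a line with eGFP knocked in at the Neurog3 locus. Plates EA01 and EA03 carried the plate code Neurog3 and plate EA02 the code endocrine. Both classes came from the same plates and shared stage and genotype. The number of copies of the reporter, the sort gates, the meaning of the well rows and the way reads were assigned to the reporter row were not among what is given in the sources used here. The labels name no animal or litter. Each class on a plate is therefore 1 value, cells are not replicates, and no test was run. An SD over the 3 plates is given as a description. Cells were read with Smart-Seq2, a plate method that reads whole transcripts without molecular identifiers, so every interval below is an exact 95% interval for counting error only.

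Neurog3 is the basic helix-loop-helix transcription factor that commits cells of the pancreatic epithelium to the endocrine fate. Its expression is brief. Cells that carry it leave the cell cycle, leave the epithelium and turn on factors such as Neurod1, Insm1, Pax4 and Nkx2-2, and later Fev, Pax6, the granule proteins and the hormones. A reporter knocked in at the locus is transcribed under the control of Neurog3's own promoter. That promoter is shown because the classes rest on 2 transcripts placed under it. The 250 bases that end just before the annotated start of Neurog3 lie at chr10:62132840-62133089 on the plus strand (RefSeq, GRCm38.p6), and the gene itself spans chr10:62133090-62134763.
Neurog3 promoter: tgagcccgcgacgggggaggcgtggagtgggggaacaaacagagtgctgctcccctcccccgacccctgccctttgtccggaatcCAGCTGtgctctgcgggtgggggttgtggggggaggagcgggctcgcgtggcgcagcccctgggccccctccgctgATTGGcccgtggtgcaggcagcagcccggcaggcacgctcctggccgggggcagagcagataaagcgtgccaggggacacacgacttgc
The capitals mark the 1 match to the E-box CANNTG, the motif of basic helix-loop-helix factors, and the 1 match to CCAAT, here on the reverse strand. They begin at -165 and -89 from the start. Both motifs were searched on both strands. Of 32851 RefSeq promoter windows, 66.2% held CANNTG and 33.8% held CCAAT, so neither match sets this window apart.

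The classes had like depth. Cells held 207389 to 874149 counts (median 492664), with medians of 490454 in GFP-read and 494008 in GFP-unread cells. The median number of genes detected was 2608 (2009 to 3277) against 2393 (1896 to 4752), and 2445 against 2294 once every cell was thinned to 200000 counts. The share of counts on the ribosomal RNA precursor Rn45s had medians of 24.7% and 22.7%, and that on ribosomal protein genes 5.12% and 5.26%. No pair of cells held identical values. The Cre and tdTomato rows were at 0 in 110 of 110 cells, which allows a share of up to 2.73%.

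GFP separated the cells with a gap around the threshold. In the 8 GFP-read cells of EA01, GFP ran from 19.8 to 258 CPM with a median of 80.4. In the 12 of EA02 it ran from 28.3 to 147.5 CPM with a median of 120.5, and in the 13 of EA03 from 30.3 to 200.1 CPM with a median of 72.4. The ranges of the plates overlapped. Over all 33 cells these levels rested on at least 6 counts, with a median of 37. Of the 77 GFP-unread cells, 74 had 0 GFP counts, and the other three had 1, 2 and 3 counts, which is 1.70, 3.93 and 5.42 CPM. No cell lay between 5.42 and 19.8 CPM, so any threshold in that interval gives the same classes.

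The GFP-read share was 30% (21.6 to 39.5). By plate it was 8 of 37 cells in EA01 (21.6%, 9.83 to 38.2), 12 of 38 in EA02 (31.6%, 17.503 to 48.7) and 13 of 35 in EA03 (37.1%, 21.5 to 55.1), with overlapping intervals. Rows A and B gave 12 of 54 cells (22.2%, 12.04 to 35.6) and rows E and F 21 of 56 (37.5%, 24.9 to 51.5). Within plates the row sets gave 1 of 18 against 7 of 19 in EA01, 6 of 18 against 6 of 20 in EA02 and 5 of 18 against 8 of 17 in EA03. The lower share of rows A and B was therefore seen in EA01 and EA03 and not in EA02.

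**Figure D1:**
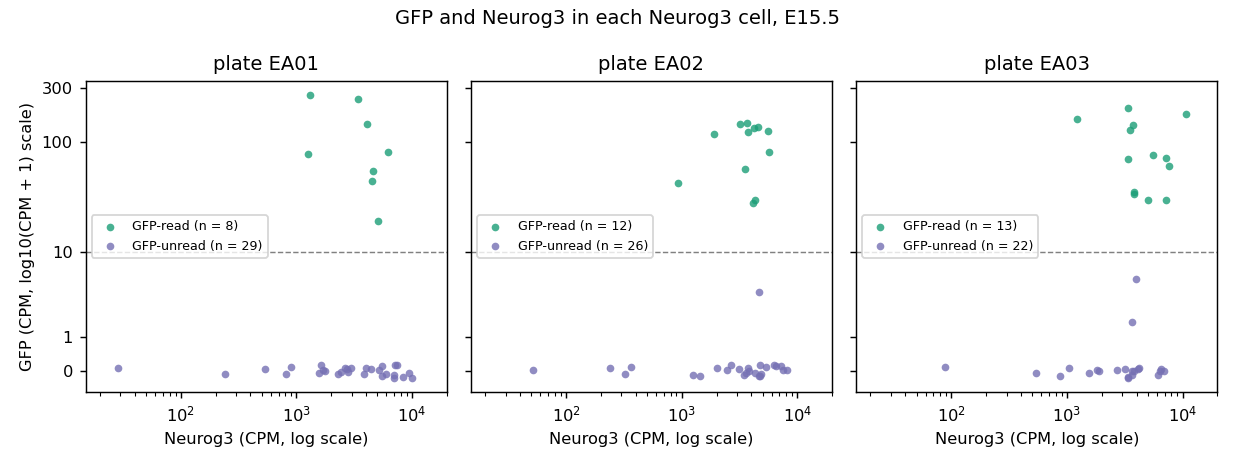
GFP (vertical axis, CPM on a log10(CPM + 1) scale) against Neurog3 (horizontal axis, CPM, log scale) in each of the 110 cells, one panel per plate. Points at 0 are spread slightly for visibility and the dashed line is the threshold of 10 CPM. GFP-read cells stood at 19.8 to 258 CPM, apart from the GFP-unread cells at 0 to 5.42 CPM, and no GFP-read cell had Neurog3 below 937 CPM.

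GFP was found among the sorted E15.5 cells of these 3 plates only beside Neurog3 or in well rows D and H. In rows A, B, E and F, 0 of 26 cells with Neurog3 below 20 CPM were GFP-read, which allows a share of up to 11.5%. In rows C and G, 0 of 18 cells with Neurog3 at 20 CPM or more and 0 of 46 without it were GFP-read, which allow shares of up to 16.7% and 6.52%. On the plate coded duct, EA04, 0 of 66 cells reached 10 CPM (highest 1.73), which serves as the background of the reporter row and allows a share of up to 4.55%. On the other plate of the endocrine code at E15.5, EA05, 1 of 85 cells did, at 55.8 CPM. At E17.5, where the labels give Neurog3-Cre with the Rosa-mTmG reporter, all 57 and 72 cells of EA06 and EA07 did, with medians of 1131 and 1236 CPM.

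GFP-unread cells were not cells without Neurog3. In EA01, Neurog3 had a median of 4289 CPM (1259 to 6131) in GFP-read cells and 2990 CPM (28.6 to 10026) in GFP-unread cells. In EA02 the medians were 3953 CPM (937 to 5721) and 3791 CPM (51.5 to 8181). In EA03 they were 3811 CPM (1215 to 10590) and 3484 CPM (88.7 to 6915). The classes overlapped over most of their range in each plate, and GFP-unread cells reached higher than GFP-read cells in EA01 and EA02. Summed over cells, Neurog3 stood at 3743 CPM (3683 to 3802) against 3732 (3701 to 3762) in EA01 and at 3819 (3767 to 3871) against 3729 (3694 to 3764) in EA02. In EA03 it stood at 5035 CPM (4979 to 5090) against 3343 (3309 to 3379). By these summed levels, the log2 ratios of 0.00, 0.03 and 0.59 show a difference in EA03 that EA01 and EA02 did not share. The medians instead lay furthest apart in EA01, at 4289 against 2990 CPM, and were 3811 against 3484 CPM in EA03. Averaged over the plates, the log2 ratio was 0.21 with summed counts. It was 0.56 when logs were averaged over cells. Which plate differed most thus depended on how the cells were combined.

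The GFP-read share by Neurog3 level is a description of the values that chose the cells. None of the 7 cells at 20 to 500 CPM was GFP-read (upper end of the interval 40.96%), and 1 of the 6 cells at 500 to 1000 CPM was. The share was 4 of 14 (28.6%) at 1000 to 2000 CPM, 11 of 35 (31.4%) at 2000 to 4000 CPM and 12 of 27 (44.4%) at 4000 to 6000 CPM. It was 5 of 21 (23.8%, 8.22 to 47.2) at 6000 CPM or more. These intervals overlapped, and in EA03 4 of the 8 cells at 6000 CPM or more were GFP-read, against 1 of 8 in EA01 and 0 of 5 in EA02. The 3 lowest GFP-read cells had Neurog3 at 937, 1215 and 1259 CPM. Below all of them lay 12 GFP-unread cells (15.6% of that class), 5 in EA01, 4 in EA02 and 3 in EA03. At the Neurog3 threshold itself, the nearest cells outside had 11.8, 4.25 and 2.33 CPM and the nearest inside had 28.6, 51.5 and 88.7 CPM.

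**Figure D2:**
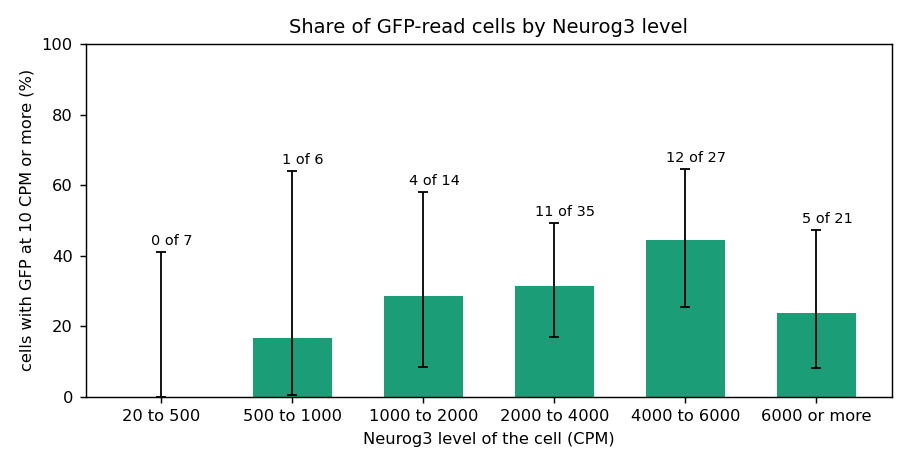
Share of GFP-read cells (vertical axis, percent) by the Neurog3 level of the cell (horizontal axis, CPM), over plates EA01 to EA03. Bars are shares, lines are exact 95% intervals for counting error, and the counts stand above. The share was 0 of 7 at the lowest level and 12 of 27 at 4000 to 6000 CPM, with wide overlapping intervals.

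In GFP-read cells the GFP level was small beside that of Neurog3. It was 2.07% of the Neurog3 level at the median (0.391% to 19.6%), with medians of 2.45%, 3.07% and 1.38% in EA01, EA02 and EA03. These are ratios of counts per cell without correction for length.

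The share of cells with GFP reads is described here beside the shares of other genes by mean level. Over the 110 cells GFP had a mean of 30.1 CPM and was read in 30% of cells. The 2735 genes with a mean of 20 to 50 CPM were found at 10 CPM or more in a median of 13.6% of cells (quartiles 10% and 18.2%), and the 1831 genes at 50 to 100 CPM in 25.5%. The 62 genes at 1000 to 10000 CPM were found in 100% of cells at the median. The share for GFP thus lay above the upper quartile of genes of its level. The GFP values are those that chose the classes, and why GFP was not read in a cell was not tested.

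Expression of all genes was compared within plates. The counts of each class were summed per plate, and the log2 ratio of GFP-read over GFP-unread CPM, with a pseudocount of 5 CPM, was averaged over the 3 plates. This scale understates the change of low genes. A gene was called higher or lower when this mean was at least 1 in size and had the same sign in all 3 plates. Of 7227 genes at 20 CPM or more in either class, 284 were called higher in GFP-read cells (3.93%) and 830 lower (11.5%). The median over all genes was -0.18 (quartiles -0.85 and 0.34), and a gene's ratio had a median SD of 1.19 between plates, larger than the median itself. The split leaned to lower calls, 74.5% of those made. The classes were unequal in size, with 8, 12 and 13 GFP-read against 29, 26 and 22 GFP-unread cells in EA01, EA02 and EA03. The part of these unequal cell numbers in the lean was not tested. With the mean over cells of log2(CPM + 5) in place of the log of summed counts, called the cell-log mean here, 1.37% of genes were called higher and 1.54% lower (52.9% of calls), and the median over all genes was 0.02. That mean gives each cell the same weight and also takes logs before averaging, and the part of each was not tested. With no plate term 55.8% of calls were lower.

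The genes of the Neurog3 programme, those that accompany Neurog3 in endocrine progenitors, mostly had summed levels near each other in the classes. Of 18 measured members of the list, 0 were called in either direction, beside 3.93% of all genes called higher and 11.5% called lower. By the mean of plates, 14 of the 18 lay above 0. Over all genes, given by single plate, 43.2%, 44.9% and 45.01% lay above 0 in EA01, EA02 and EA03. The median of the list was 0.13, beside -0.18 over all genes. The range ran from -1.60 for Dll4, a Notch ligand, to 0.67 for Dll1, its relative. Hes6, an antagonist of Hes1, stood at 1065 against 769 CPM in EA01, 910 against 887 in EA02 and 1023 against 795 in EA03. It was higher in GFP-read cells in each plate, by 0.29 ± 0.23 (SD, n = 3 plates) on the log2 scale, short of the call. Cbfa2t3, a corepressor of the ETO family, stood at 584 against 357 CPM, 921 against 569 and 571 against 572. It was at 20 CPM or more in 33 of 33 GFP-read and 65 of 77 GFP-unread cells, and its log2 ratio was 0.46 ± 0.40. The ratio of Cbfa2t3 was 1.06 with the cell-log mean and passed the call, and Cck was at -1.29 and called lower.

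By summed level the other members of the programme given here were mostly of like size in the classes. Btbd17 was at 580 against 428 CPM (mean of plates), Mdk, a secreted growth factor, at 2484 against 2248 CPM, and Smarcd2, a chromatin remodelling subunit, at 639 against 493.5 CPM. By cells Smarcd2 differed more. It was at 20 CPM or more in 31 of 33 GFP-read (93.9%, 79.8 to 99.3) and 48 of 77 GFP-unread cells (62.3%, 50.6 to 73.1). In EA03 it was so in 11 of 13 and 18 of 22. Its ratio was 1.69 with the cell-log mean, without a call. Igfbpl1 was at 186 against 185 CPM and Tox3 at 500 against 489 CPM. Cck, the cholecystokinin gene, was at 380 against 603 CPM with 1 of 3 plates above 0. Mfng, which modifies Notch receptors, was at 270 against 223 CPM.

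**Figure D3:**
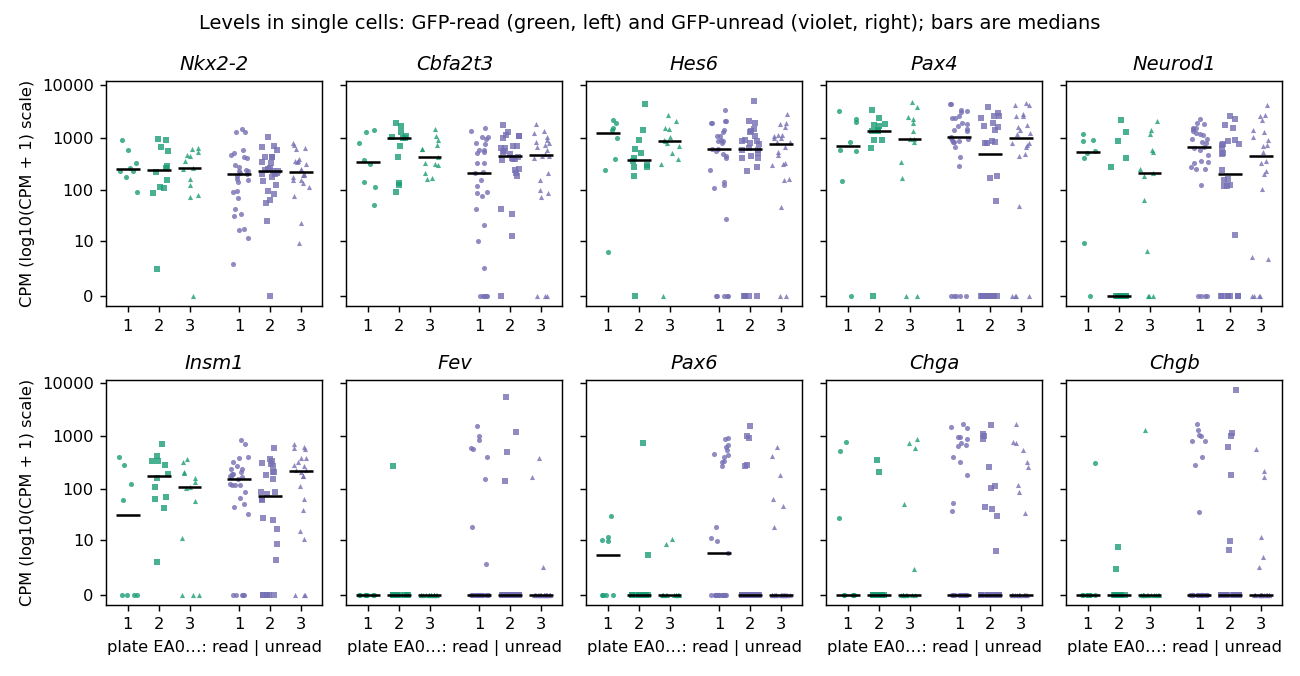
Levels of 10 genes in each cell (vertical axis, CPM on a log10(CPM + 1) scale), for GFP-read cells (green, left) and GFP-unread cells (violet, right) of plates EA01, EA02 and EA03 (horizontal axis, 1 to 3). Bars are medians. Nkx2-2, Cbfa2t3, Hes6 and Pax4 were read in most cells of both classes, while Fev was read in 1 of 33 GFP-read and 13 of 77 GFP-unread cells at 20 CPM or more.

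The direct and early targets of Neurog3 split in their values without passing the call. Nkx2-2, a homeodomain factor needed for beta cells, stood at 354 against 309, 339 against 288 and 310 against 302 CPM in EA01, EA02 and EA03. Its log2 ratio of 0.15 ± 0.10 was among the steadiest. Pax4, a factor of the beta and delta lineages, had 1388 against 1228 CPM (mean of plates) and was read in 29 of 33 and 58 of 77 cells. Rfx6 stood at 435 against 423 CPM. Neurod1, the basic helix-loop-helix factor that maintains the endocrine programme after Neurog3, was lower in GFP-read cells in each plate. It stood at 537 against 788 CPM, 391 against 525 and 476 against 948, a log2 ratio of -0.65 ± 0.30. It was read in 20 of 33 GFP-read (60.6%, 42.1 to 77.1) and 59 of 77 GFP-unread cells. Its ratio was -1.06 with the cell-log mean and passed the call. Insm1, a zinc finger factor, had 145.3 against 184 CPM with opposite signs between plates.

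Several genes of later endocrine steps were lower in GFP-read cells. Of 19 measured endocrine transcription factors, 0 were called higher and 4 lower, among them Fev, Pax6 and Rfx3, with a median of -0.66. The 4 made 21.1% of the list, beside 11.5% of all genes. With the cell-log mean 2 of 19 were called lower, Neurod1 and Pax6, beside 1.54% of all genes. Fev (chr1:74881509-74885419), the factor of the precursor step that follows Neurog3, was at 0, 15.9 and 0 CPM in GFP-read cells of EA01, EA02 and EA03. In GFP-unread cells it was at 178, 284 and 29.3 CPM. All of the GFP-read value came from 1 cell of 33 (277 CPM), against 13 of 77 GFP-unread cells at 20 CPM or more (16.9%, 9.31 to 27.1). The log2 ratio was -3.92 ± 1.21 (SD, n = 3 plates). A single GFP-unread cell held 38.2% of that class's Fev counts. Fev was at -0.99 with the cell-log mean and was not called.

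Pax6 (chr2:105668900-105697364), a factor of hormone-producing cells, stood at 7.35 against 206 CPM in EA01, 43.9 against 154.2 in EA02 and 1.59 against 72.4 in EA03. The log2 ratio was -3.12 ± 1.25. It was read in 2 of 33 (6.06%, 0.743 to 20.2) and 21 of 77 cells (27.3%, 17.7 to 38.6), whose intervals overlap. Pax6 was at -1.17 with the cell-log mean and still called. Rfx3, a ciliary and islet factor, was at 72.3 against 148.1 CPM, and at a ratio of -0.53 without a call with the cell-log mean. Isl1, a pan-endocrine factor, was at 198 against 329 CPM without a call. Pdx1 and Nkx6-1, factors of beta cells and progenitors, stood at 25.3 against 11.7 and 45.5 against 64.5 CPM, neither called.

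Some secretory granule genes were lower in GFP-read cells. Of 14 measured members, 0 were called higher and 6 lower (Chga, Scg3, Scg5, Scgn, Ptprn2 and Pam), with a median of -1.39. The 6 made 42.9% of the list, beside 11.5% of all genes. With the cell-log mean 2 of 13 were called lower, Ptprn2 and Chgb, beside 1.54% of all genes. Thus 5 of the 6 lost their call, and the list's median was -0.67. Chga, chromogranin A, was at 164 against 408 CPM in EA01, 37.1 against 198 in EA02 and 177 against 234 in EA03. It was read in 9 of 33 and 33 of 77 cells. Scgn, the calcium sensor secretagogin, was at 50.4 against 264 CPM (mean of plates), and Scg3, a granin, at 20.8 against 71.7 CPM. Scg5, the chaperone of a prohormone convertase, was at 77.3 against 183 CPM with a log2 ratio of -1.19 ± 0.15, nearly equal in the 3 plates. Ptprn2, a granule membrane protein, was at 61.7 against 175 CPM. Pam, the peptide amidating enzyme, had 0 counts in the 33 GFP-read cells, which allows a share of up to 9.09%, and was read in 9 of 77 GFP-unread cells (11.7%, 5.49 to 21.03).

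Chgb, chromogranin B, showed how a few cells carried such values. It stood at 35.3 against 261 CPM in EA01 and 0.731 against 457 in EA02, but at 102.4 against 41.99 in EA03, and was not called. One GFP-unread cell held 42.3% of the class's Chgb counts and 1 GFP-read cell 81.3%. Syt13, a synaptotagmin of endocrine precursors, was at 374 against 294 CPM and was not called.

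Hormone transcripts were found in few cells of either class. At 1000 CPM of insulin, glucagon, somatostatin, pancreatic polypeptide or ghrelin, 0 of 33 GFP-read cells counted as hormone cells, which allows a share of up to 9.09%, and 1 of 77 GFP-unread cells did. Of 5 measured hormone genes, 4 were called lower (Ins2, Ppy, Iapp and Pyy), beside 11.5% of all genes, and each rested on few cells. With the cell-log mean 0 of the 5 were called and the list's median was -0.12 in place of -1.90. Pyy, peptide YY, was at 6.29 against 870 CPM, but was at 20 CPM or more in 2 of 33 (6.06%) and 7 of 77 cells (9.09%), and 1 GFP-unread cell held 36.8% of that class's counts. Somatostatin was at 0.0529 against 253 CPM, all of the latter from a single cell. Ins2 was read in 1 of 33 and 9 of 77 cells. Gcg stood under 1 CPM and Ghrl at 0 in both classes.

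Later endocrine genes were also described by the Neurog3 level of the GFP-unread cells. This split rests on the levels that chose the cells and carries no test. The 12 GFP-unread cells below every GFP-read cell had Neurog3 at 28.6 to 890 CPM (median 344). Fev was at 20 CPM or more in 8 of these 12 (66.7%, 34.9 to 90.1), in 5 of the other 65 GFP-unread cells (7.69%, 2.54 to 17.05) and in 1 of 33 GFP-read cells (3.03%, 0.0767 to 15.8). Pax6 was read in 9 of 12, 12 of 65 and 2 of 33, and Chga in 8 of 12, 25 of 65 and 9 of 33. Scgn was read in 9 of 12, 14 of 65 and 6 of 33. In these 4 genes the share of the 65 lay nearer to that of the GFP-read cells than to that of the 12. In the other direction, Hes6 was read in 6 of 12, 59 of 65 and 30 of 33 cells, and Cbfa2t3 in 6 of 12, 59 of 65 and 33 of 33. Neurod1, in turn, was read in 12 of 12, 47 of 65 and 20 of 33 cells.

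Restricting both classes to Neurog3 at 900 CPM or more removed those 12 cells and kept all 33 GFP-read cells. Fev then had a log2 ratio of -3.10 and Pax6 of -2.64, and both were still called lower, as was Rfx3. In the granule list 3 of 12 measured members were called lower (Scg3, Scgn and Ptprn2), beside 10.02% of all genes. Of the 12, 1 was called higher (Pcsk2), beside 4.75% of all genes. The list's median was -0.70 in place of -1.39. With all cells, Pcsk2 was at 20 CPM or more in 3 of 33 GFP-read and 12 of 77 GFP-unread cells. Its ratio was -0.14 with the cell-log mean. Of the hormone genes Ppy and Pyy were called lower, and Ins2 and Iapp were not. Chga was at -0.72 and Scgn at -1.26, against -1.32 and -2.74 with all cells. Of 7205 genes tested, 342 were called higher (4.75%) and 722 lower (10.02%), of which 247 and 601 were among those called with all cells. Pax4 was at 0.06, Hes6 at 0.15 and Cbfa2t3 at 0.23, nearer to 0 than with all cells. Pdx1 was called higher, at 1.39, and Dll4 lower, at -1.86.

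**Figure D4:**
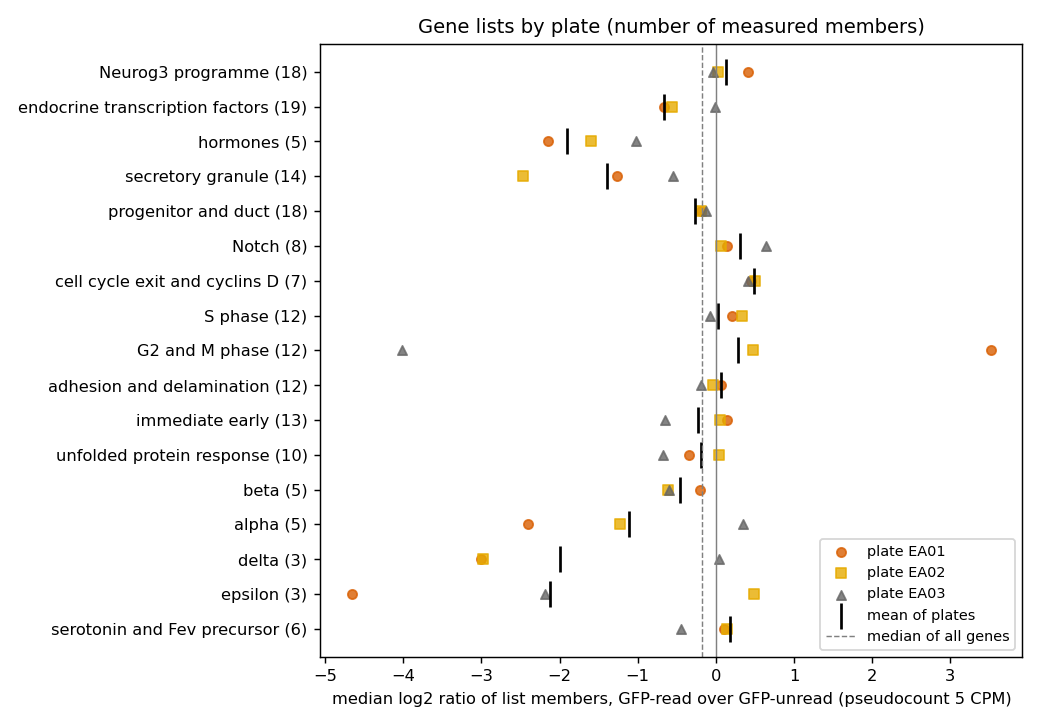
Median log2 ratio of GFP-read over GFP-unread cells for 17 gene lists (horizontal axis, with a pseudocount of 5 CPM), by plate. Points are plates, black bars are the medians of the plate means and the dashed line is the median of all genes at -0.18. The secretory granule and hormone lists lay below 0 in each plate, with medians of -1.39 and -1.90, and the G2 and M phase list ran from -4.02 to 3.51.

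Genes of the epithelium from which Neurog3 cells arise did not separate the classes. Of 18 measured progenitor and duct genes, 1 was called lower (Cldn4, a claudin, 81.6 against 233 CPM) and 0 higher, with a median of -0.26. Over all genes 11.5% were called lower and 3.93% higher. Cldn4 was at -0.73 with the cell-log mean and was not called. Sox9, the progenitor factor, was at 54.8 against 77.5 CPM and was read in 15 of 33 and 32 of 77 cells. Spp1, osteopontin, was at 438 against 1222 CPM in EA01, 1205 against 1364 in EA02 and 1758 against 572 in EA03, so its sign turned between plates. Epcam and Krt8, an epithelial adhesion molecule and keratin, were at 942 against 837 and 1317 against 1187 CPM.

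In the Notch pathway, which holds neighbouring cells back from the endocrine fate, 1 of 8 measured genes was called higher, beside 3.93% of all genes. With Neurog3 at 900 CPM or more Dll4 was called lower as well. The gene called higher was Hes1, the repressor of Neurog3 downstream of Notch, at 271 against 126.4 CPM in EA01, 183 against 0.927 in EA02 and 113.2 against 29.9 in EA03. It was read in 5 of 33 (15.2%, 5.11 to 31.9) and 5 of 77 cells (6.49%, 2.14 to 14.5), whose intervals overlap, and 1 GFP-unread cell held 50.5% of that class's counts. The ratio of Hes1 was 0.87 with the cell-log mean and was not called. Notch2 had 0 counts in GFP-read cells, but 1 GFP-unread cell held 92.9% of the counts of the other class.

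Genes of cell cycle exit had few cells behind each call. Of 7 measured, beside 3.93% of all genes, 2 were called higher, the cyclin Ccnd2 (80.6 against 25.02 CPM) and the cycle inhibitor Rb1 (32.4 against 8.27 CPM), and the list's median was 0.49. Each was read in 5 GFP-read cells, and with the cell-log mean they were at 0.47 and 0.41 and neither was called. Cdkn1a, the p21 inhibitor known to accompany Neurog3, was at 1281 against 740, 928 against 653 and 734 against 650 CPM. It was higher in each plate with a log2 ratio of 0.49 ± 0.31, and was not called. Cdkn1c, the p57 inhibitor, was at 238 against 111.6 CPM with the larger part from EA03. Of 12 S phase genes none was called and the median was 0.02. Of 12 G2 and M phase genes none was called, with medians of 3.51 in EA01, 0.48 in EA02 and -4.02 in EA03. Mki67, a marker of cycling cells, was read in 2 of 33 and 4 of 77 cells, so the plate medians rested on a handful of cells.

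Stress and other programmes were close to the median of all genes, of which 11.5% were called lower. The adhesion list had 0 of 12 genes called (median 0.07), the immediate early list 1 of 13 (Atf3, lower, median -0.23) and the unfolded protein response list 1 of 10 (Ddit3, lower, median -0.19). Ddit3, a stress-induced factor, stood at 39.2 against 61.9, 0 against 18.7 and 1.75 against 94.8 CPM. Atf3 was at -0.29 with Neurog3 at 900 CPM or more and at -0.06 with the cell-log mean, and was called in neither.

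Few markers of hormone cell types were measured, and the members called lower stand beside 11.5% of all genes. Slc38a5, an amino acid transporter and a gene of the alpha list, was called lower. Slc38a5 stood at 37.3 against 820, 214 against 509 and 261 against 798 CPM, and was read in 6 of 33 and 27 of 77 cells. It was not called with Neurog3 at 900 CPM or more, at -1.66, and was still called lower with the cell-log mean, at -1.59. Of 5 measured genes of the beta list 2 were called lower, Ins2 and Iapp, with a median of -0.45. With the cell-log mean none was called. With Neurog3 at 900 CPM or more only 4 genes of the beta list were measured. Of these 4 none was called lower and 2 higher, Pdx1 and Nnat, beside 4.75% of all genes, with a median of 0.45. Of 3 of the delta list none was called, though Hhex, a delta factor, and Rbp4 were at 48.7 against 201 and 63.7 against 391 CPM. Of 3 of the epsilon list Mboat4, the ghrelin acyltransferase, was called lower, with 0 counts in GFP-read cells and reads in 6 GFP-unread cells. It was called neither with Neurog3 at 900 CPM or more nor with the cell-log mean. In the serotonin and Fev list, 2 of 6 were called lower, Fev and Cldn4, and none with the cell-log mean.

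Other cell types were nearly absent from both classes. The summed level of the 13 acinar markers had a median of 0 CPM in both classes (highest 689 in GFP-read and 433 in GFP-unread cells), and 8 of the 13 were at 0 in each class. Of 8 mesenchyme markers 6 and 7 were at 0, and the remainder was mainly Vim at 148.4 against 78.3 CPM, which was called higher with Neurog3 at 900 CPM or more (1.23). The immune and erythroid markers were at 0 in GFP-read cells, and 7 of 8 endothelial markers were at 0 in each class. Of the neural list, Tubb3 and Elavl4 were at 201 against 373 and 22.9 against 63.9 CPM, neither called. Tubb3 was called lower with Neurog3 at 900 CPM or more (-1.01) and with the cell-log mean (-1.16). Both classes held cells of both sexes in each plate. At 10 CPM, 17 of 33 GFP-read and 38 of 77 GFP-unread cells held Xist without Y-linked transcripts, and 14 and 25 held Y-linked transcripts without Xist. EA01 was uneven, with 3 and 5 GFP-read cells of these kinds beside 18 and 7 GFP-unread cells. The part of sex in the gene values was not tested.

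The genes that led each direction were named by size, level and the share of cells that held them, so their levels and shares are a description. Among genes higher in GFP-read cells, Aif1l, an actin-binding protein, was at 49.02 against 17.6, 70.2 against 8.51 and 107.99 against 3.34 CPM, a log2 ratio of 2.50 ± 1.25. It was read in 12 of 33 (36.4%, 20.4 to 54.9) and 6 of 77 cells (7.79%, 2.91 to 16.2). Hook3, an adaptor of dynein motors, was at 216 against 73.9, 249.2 against 26.95 and 298 against 78.7 CPM. It was read in 15 of 33 (45.5%, 28.1 to 63.6) and 13 of 77 cells (16.9%, 9.31 to 27.1). Wwp2, a ubiquitin ligase, was at 146.4 against 27.8 CPM, and Bcl10, a signalling adaptor, at 159 against 30.2 CPM with ratios of 1.88 to 2.67 in the 3 plates. Lyrm5 was at 120 against 31.2 CPM and Ncoa5, a nuclear receptor coactivator, at 96.4 against 25.7 CPM. The other 6 were Ykt6, Dnm1l, Exoc6b, Thoc5, Meis1 and Tmem218, with ratios of 1.503 to 1.64. In each of the 12, most GFP-read cells had fewer than 20 CPM.

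Among genes lower in GFP-read cells, Gata6, a factor of pancreas formation, was at 3.68 against 60.6, 9.69 against 60.98 and 6.51 against 93.1 CPM. Its log2 ratio was -2.73 ± 0.49, and 3 of 33 (9.09%, 1.92 to 24.3) and 22 of 77 cells (28.6%, 18.8 to 40.004) held it. Msi2, an RNA-binding protein of progenitors, was at 3.43 against 58.05, 5.12 against 66.9 and 19.5 against 97.9 CPM, with reads in 3 and 26 cells. Inpp4a, a lipid phosphatase, was held by 3 of 33 (9.09%, 1.92 to 24.3) and 30 of 77 cells (38.96%, 28.05 to 50.8). Itpa, which clears inosine nucleotides, was held by 6 of 33 and 38 of 77. Samd10 had the largest ratio of the 12, -3.61, at 13.6 against 138.6 CPM. Sct, the secretin gene, was at 20.6 against 70.5 CPM. The others were Cab39, Rapgef4, Ddit3, Tmem199, Atg4b and Rars2, with ratios of -2.08 to -2.69. Some of these means rested largely on 1 plate. In EA01, EA02 and EA03, Atg4b was at -0.71, -5.67 and -0.00725 and Rars2 at -0.55, -0.98 and -4.70. Tmem199 was at -4.80, -1.55 and -0.28. Of the 24 leading genes, 23 kept their call with Neurog3 at 900 CPM or more, with Atg4b as the exception. With the cell-log mean 17 kept it, and Ykt6, Dnm1l, Meis1, Tmem218, Cab39, Atg4b and Sct lost it. Both settings used cells that had chosen these genes, and the first kept 33 GFP-read and 65 GFP-unread cells. Neither is therefore an independent check of the calls.

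Genes chosen in 2 plates were read in the plate that had not been used. Genes higher in both of the other plates, with a mean ratio of at least 2-fold, were above 0 in EA01 in 40% of 655 cases, in EA02 in 44.2% of 663 and in EA03 in 42.6% of 650. Over all genes the shares above 0 were 43.2%, 44.9% and 45.01%. Genes chosen as higher were thus no more often higher in the remaining plate than genes at large. Genes chosen as lower were below 0 in 60.3% of 1243 cases in EA01, 61.2% of 1260 in EA02 and 54.5% of 1473 in EA03, beside 55.7%, 53.96% and 53.4% over all genes. The margin for the lower genes was 4.602, 7.23 and 1.104 percentage points. The share past 2-fold was larger among the chosen genes than among all genes in both directions. Genes chosen as lower were at least 2-fold lower in the remaining plate in 42.3%, 38.6% and 33.2% of cases, beside 31.4%, 28.6% and 24.9% of all genes. Genes chosen as higher were at least 2-fold higher in 22.9%, 20.8% and 21.1%, beside 19.2%, 17.53% and 18.9%. Their median log2 ratio in the remaining plate was nevertheless below 0, at -0.36, -0.11 and -0.10, beside -0.18, -0.10 and -0.08 over all genes. For genes chosen as lower it was -0.47, -0.45 and -0.16. The larger share past 2-fold thus did not go with a shift of the higher genes towards higher values.

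**Figure D5:**
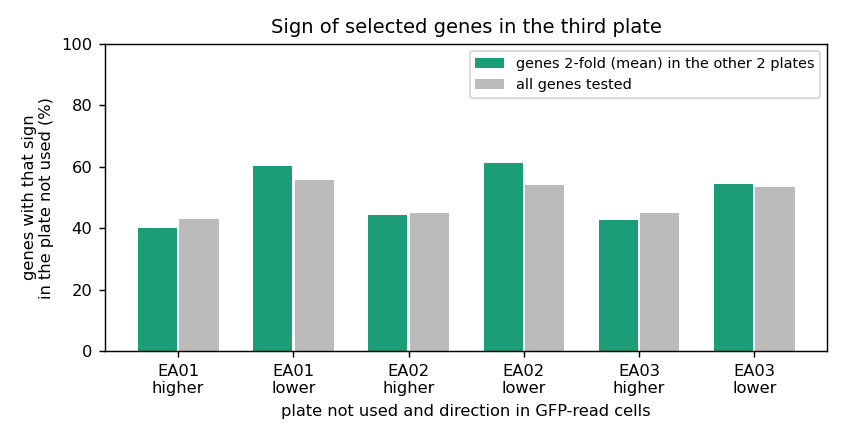
Share of genes (vertical axis, percent) with the sign shown in the plate named on the horizontal axis. Green bars are genes with that sign in both of the other plates and a mean ratio of at least 2-fold there, and grey bars are all genes tested. Green lay below grey for higher genes and above it, by 1.104 to 7.23 percentage points, for lower genes.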

How the data were processed

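The values are integer read counts, one per gene and cell, deposited without normalisation for 23002 genes and 495 cells, of which 110 are described here. Per the submitters' processing notes, the authors mapped to mm10 and used FastQC, STAR and HTSeq. No version or strand setting is given in the sources used here, so reads of overlapping and antisense genes cannot be told apart. Depth was 207389 to 874149 counts per cell. Column names matched 1 sample each, and plate and well come from the titles.

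Members, gene lists and the rule for named genes were chosen with earlier results of these data known. Counts were summed per class and plate (15846711 counts in GFP-read and 37768073 in GFP-unread cells), divided by the total and compared as described in the text, with Python 3.11.15, pandas 2.3.3 and SciPy 1.17.1. List members counted as measured when either class reached 20 CPM; 2 of 258 list genes, Hbb-bs and Hbb-bt, did not match a row. Shares carry exact Clopper-Pearson intervals, summed levels exact Poisson intervals, and a count of 0 the share that 3 cells make. Named were the 12 called genes per direction with the largest ratio, at 50 CPM or more in the higher class and at 10 CPM in 25% of its cells in each plate, up to 3 members per list and a set of known pancreas genes; Gm-numbered, Rik, ribosomal protein and small RNA genes were left out. Other list members given with values were chosen after their values were seen. This rule had 55 candidates higher and 108 lower. A gene among the called list members is not reported here.

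Alternatives were other thresholds, the mean over cells of log2(CPM + 5), edgeR 4.0.16 TMM factors, DESeq2 1.42.0 size factors, totals without Rn45s, other pseudocounts, no gene filter, row sets, no plate term and each plate left out. Neurog3 at 900 CPM or more was added after seeing the data. The ratio and the call were tested on simulated Poisson counts with known fold changes. Every simulated cell of a class had the same level of a gene, without further variation between cells or plates. The simulation therefore does not give the rate of false calls in these data. Positions are from GENCODE M21 (GRCm38), the promoter from RefSeq.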

Additional observations from a re-analysis of the deposited data

Results flagged for a closer look

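GFP was also found in cells outside the Neurog3 cells of rows A, B, E and F. In rows D and H of the same 3 plates, 13 of 15 cells were GFP-read (86.7%, exact 95% interval 59.5 to 98.3), against 0 of 66 on the duct plate. All 15 had Neurog3 at 0. GFP ran from 38.5 to 1080 CPM in the 13, with a median of 183, beside 81.6 in the GFP-read Neurog3 cells. A hormone stood at 1000 CPM or more in 13 of the 15, and 11 of those 13 were GFP-read. The remaining pair, in well H1 of EA01 and of EA02, had GFP at 525 and 1080 CPM and no hormone reads. What these wells hold is not given in the labels.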

How the results depend on the processing

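The GFP-read share stayed within its interval under every alternative run, at 22.2% (rows A and B) to 37.5% (rows E and F), and at 26.7% to 34.2% with a plate left out. The shares of genes called, 3.93% higher and 11.5% lower as reported, moved more. With the cell-log mean they were 1.37% and 1.54%, with a pseudocount of 20 CPM 2.03% and 6.49%, and with rows A and B alone 10.3% and 23.6%. The share called higher was 2.34% with no filter on low genes and 11.6% with no plate term. With a plate left out, 9.32% to 9.69% were called higher and 17.3% to 20.97% lower, over 2 plates in place of 3. Lower genes made up 52.9% of calls with the cell-log mean, 55.8% with no plate term and 67.9% to 79.001% under the others with all plates and all 4 rows. The median over all tested genes, -0.18 as reported, was 0.02 with the cell-log mean and -0.01 with no plate term. That median was -0.22 with TMM factors and -0.13 with DESeq2 size factors. Among named genes, 6 values left their reported side. Iapp was at 0.0822 with the cell-log mean. Rows E and F put Iapp at 0.00381, Ccnd2 at -0.30, Rb1 at -0.27 and Mboat4 at 0. Rows A and B put Dnm1l at -2.14. The cause was not tested. By replicate number, no paired analysis was possible because these numbers only count cells in order. The classes were paired by plate throughout. Each gene level of a cell rests on 1 library of 207389 to 874149 counts, so reads at 0 do not show that a gene was silent.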
